A study of Homo sapiens with 12 samples.

Results

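The lysosome and autophagy genes described here are 34 genes listed by symbol. All 34 were found among the 26475 gene symbols counted, and all 34 were among the 15461 symbols with enough counts to be tested. They were chosen by name, without a rule on their values, but with earlier results of these data known. The series is stranded messenger RNA sequencing of SUM159PT, an established human triple-negative breast carcinoma line, grown as tumours in female NOD scid gamma mice injected at an age of 8 weeks. These mice lack mature lymphocytes and natural killer cells but keep myeloid and stromal cells. Hosts were kept on standard chow or on a fasting-mimicking diet given for 4 days in every week, and tumour cells were stained with antibodies against human CD44 and CD24 and sorted. There were 4 groups of 3 libraries. Standard diet gave CTR_LO (CD44+CD24-Low cells) and CTR_HI (CD44+CD24-High cells), and the fasting-mimicking diet gave FMD_LO and FMD_HI in the same way. All groups were 1 cell line, and no source used here says which libraries share an animal or whether animals were pooled, so p-values measure only the spread between libraries, which may be technical.

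Lysosomes are acidic compartments that break down proteins, lipids, sugars and nucleic acids. A rotary proton pump, the V-ATPase, keeps them acidic: its V0 sector spans the membrane and its V1 sector splits ATP on the cytosolic side. Macroautophagy delivers cytoplasm to them: ULK kinases start it, a Beclin 1 lipid kinase complex marks the membrane with a phosphoinositide that WIPI proteins read, conjugation enzymes attach ATG8-family proteins to the membrane, and receptors such as p62 tether cargo. Low nutrients and low mTORC1 activity are known to release TFEB and TFE3 into the nucleus, where they bind the CLEAR element, an E-box with the core CACGTG, near many lysosomal genes. That step moves the proteins and need not alter their own messenger RNA.

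Promoter windows, from 250 bases before to 50 bases after an annotated start, were matched for 26 of the 34 genes in the RefSeq table on GRCh38.p14. The 8 genes without a window were LAMP2, HEXA, PSAP, UVRAG, ATP6V0E1, ATP6V1A, ATP6V1B2 and ATP6V1H. The motifs searched were CACGTG and TCACGTGA, each its own reverse complement, so both strands were covered, and the longer contains the shorter. At least 1 CACGTG lay in a window of 6 of the 26 genes (23.1%), against 8.77% of the 27305 genes in that table. TCACGTGA lay in 4 of the 26 (15.4%), against 1.18%. The windows with TCACGTGA are shown because they hold the element through which TFEB and TFE3 are known to act. They belong to ATP6V0D1, which rose in FMD_LO, to GAA, which differed between populations, and to MCOLN1 and LAMP1, which passed no test in the 4-group fit. Capitals mark each copy of either motif, and the strand printed is that of the gene.
ATP6V0D1 (GRCh38.p14, chr16:67481108-67481407, minus strand): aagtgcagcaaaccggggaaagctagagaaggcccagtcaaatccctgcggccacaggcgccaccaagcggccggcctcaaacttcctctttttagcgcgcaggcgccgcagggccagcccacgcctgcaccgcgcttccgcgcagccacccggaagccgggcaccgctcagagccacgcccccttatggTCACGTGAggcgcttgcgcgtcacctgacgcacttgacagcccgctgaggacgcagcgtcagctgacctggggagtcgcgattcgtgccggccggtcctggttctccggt
GAA (GRCh38.p14, chr17:80101331-80101630, plus strand): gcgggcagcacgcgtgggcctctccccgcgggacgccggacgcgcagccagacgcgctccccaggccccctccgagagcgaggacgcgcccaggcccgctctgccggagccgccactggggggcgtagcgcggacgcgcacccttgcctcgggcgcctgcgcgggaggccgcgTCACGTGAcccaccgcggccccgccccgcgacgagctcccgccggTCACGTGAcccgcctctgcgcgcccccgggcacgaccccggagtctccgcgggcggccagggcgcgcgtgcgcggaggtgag
MCOLN1 (GRCh38.p14, chr19:7522374-7522673, plus strand): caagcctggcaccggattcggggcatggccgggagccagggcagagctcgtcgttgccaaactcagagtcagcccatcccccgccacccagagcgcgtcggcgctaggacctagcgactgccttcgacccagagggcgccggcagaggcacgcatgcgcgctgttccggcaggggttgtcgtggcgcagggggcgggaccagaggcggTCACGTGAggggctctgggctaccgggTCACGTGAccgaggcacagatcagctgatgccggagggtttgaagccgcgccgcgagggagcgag
LAMP1 (GRCh38.p14, chr13:113296989-113297288, plus strand): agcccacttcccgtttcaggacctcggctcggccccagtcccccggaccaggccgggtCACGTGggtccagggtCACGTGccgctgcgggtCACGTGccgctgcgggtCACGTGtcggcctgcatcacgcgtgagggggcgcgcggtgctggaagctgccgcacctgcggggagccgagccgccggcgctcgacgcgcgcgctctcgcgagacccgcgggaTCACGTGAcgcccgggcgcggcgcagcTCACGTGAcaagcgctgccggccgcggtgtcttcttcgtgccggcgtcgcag
The LAMP1 window held 6 copies of CACGTG, those of GAA and MCOLN1 held 2 and 2, and that of ATP6V0D1 held 1. These are matches of letters and not measured binding sites.

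Library totals ran from 17736610 to 18579816 counts in FMD_LO and from 29049144 to 47587142 in the other 9 libraries. On the first principal component of all tested genes, which held 57.4% of the variance, FMD_LO lay at 79.5 to 88.9 and the other libraries at -46.1 to 2.35. The 34 genes together took 0.591% to 0.748% of a library. Values below are in CPM, read counts relative to the library total after TMM scaling. VIM and CD44, chosen as markers of this mesenchymal-like line, were abundant in every group, with mean levels of 4818 to 5774 and 747 to 1076 CPM. Whether their reads came from the line alone was not tested. The epithelial marker EPCAM had mean levels of 0.154 to 0.476 CPM. The sort antigen CD24 had mean levels of 1.59 to 2.15 CPM in the 4 groups. Its message averaged lower in CD24-high than in CD24-low cells under the control diet (log2 fold change -0.18 ± 0.40). Under the fasting-mimicking diet it averaged higher (0.42 ± 0.43). Libraries overlapped both times and neither difference passed, so CD24 messenger RNA did not separate the sorted populations.

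Levels between genes were compared as CPM per kilobase of exon (merged exons of GENCODE release 29). PSAP, the precursor of the saposins that help hydrolases reach their lipids, was the most abundant of the 34 at 928 on average over the 12 libraries. The tetraspanin CD63 followed at 248, the cargo receptor SQSTM1 (p62) at 199.8, the ATG8 protein GABARAP at 82.1 and the membrane glycoprotein LAMP1 at 81.3. The kinase ULK2 was lowest at 1.83, below UVRAG, a partner of Beclin 1, at 4.93 and the conjugation enzyme ATG7 at 5.25. In ATG7, 69.6% of the reads of both strands lay on the strand opposite the gene, against at most 1.87% in any of the other 33 genes, so the values of ATG7 depend on the strand that was counted.

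**Figure D1:**
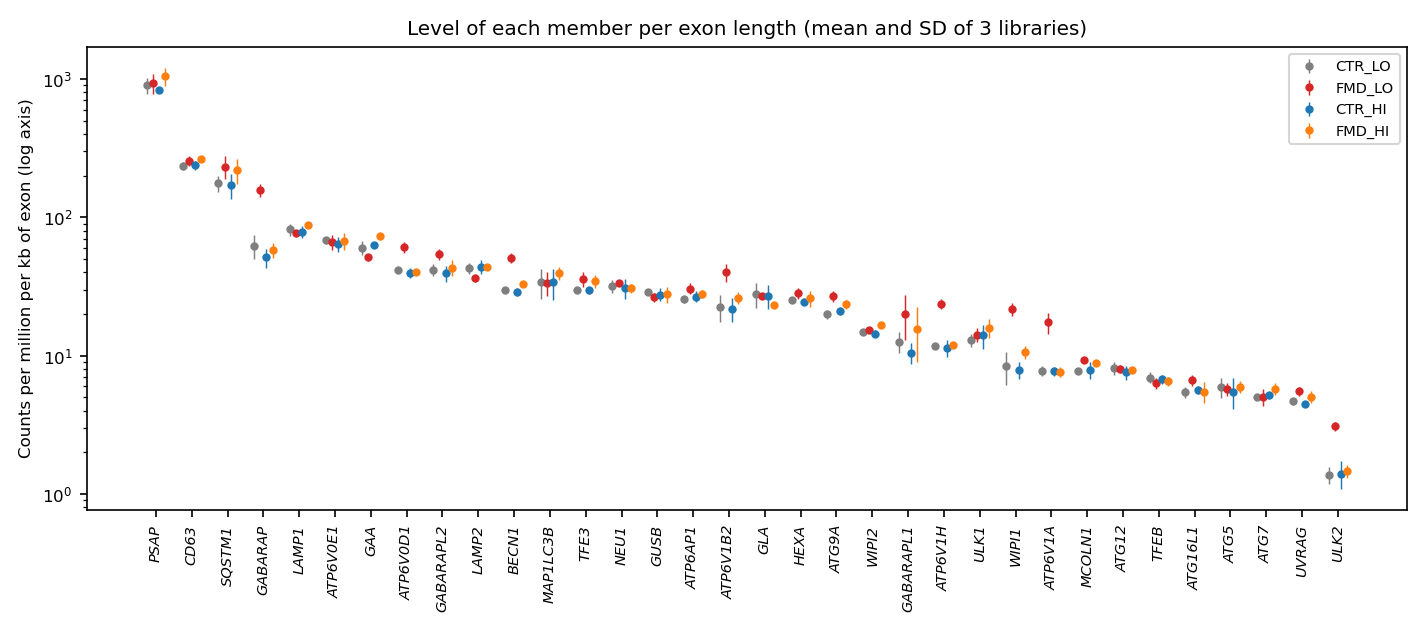
Level of each of the 34 genes in CPM per kilobase of exon (log axis), ordered by the mean of all libraries; points are means and bars SDs of 3 libraries per group. PSAP stands highest at 928 and ULK2 lowest at 1.83 (means over all libraries).

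The first comparison set the diets against each other in CD24-low cells, the sorted fraction meant to hold the cancer stem cells. The genes that rose in FMD_LO were subunits of the proton pump and parts of the machinery that starts and builds autophagosomes, while hydrolases, lysosomal membrane genes, conjugation genes and both regulators did not pass the test. Of the 34 genes, 9 rose (26.5%), where 12% of all tested genes rose. Of the 34, 0 fell, where 4.33% of all tested genes fell (16.4% passed in either direction), with edgeR at an adjusted p below 0.05. None of the 34 was lower at an unadjusted p below 0.05 (0 genes), and 0 fell with DESeq2. The median log2 fold change of the 34 was 0.20, against -0.03 over all tested genes. Libraries did not overlap for 16 genes in the upward direction (47.1%, against 19.7% of all tested genes).

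**Figure D2:**
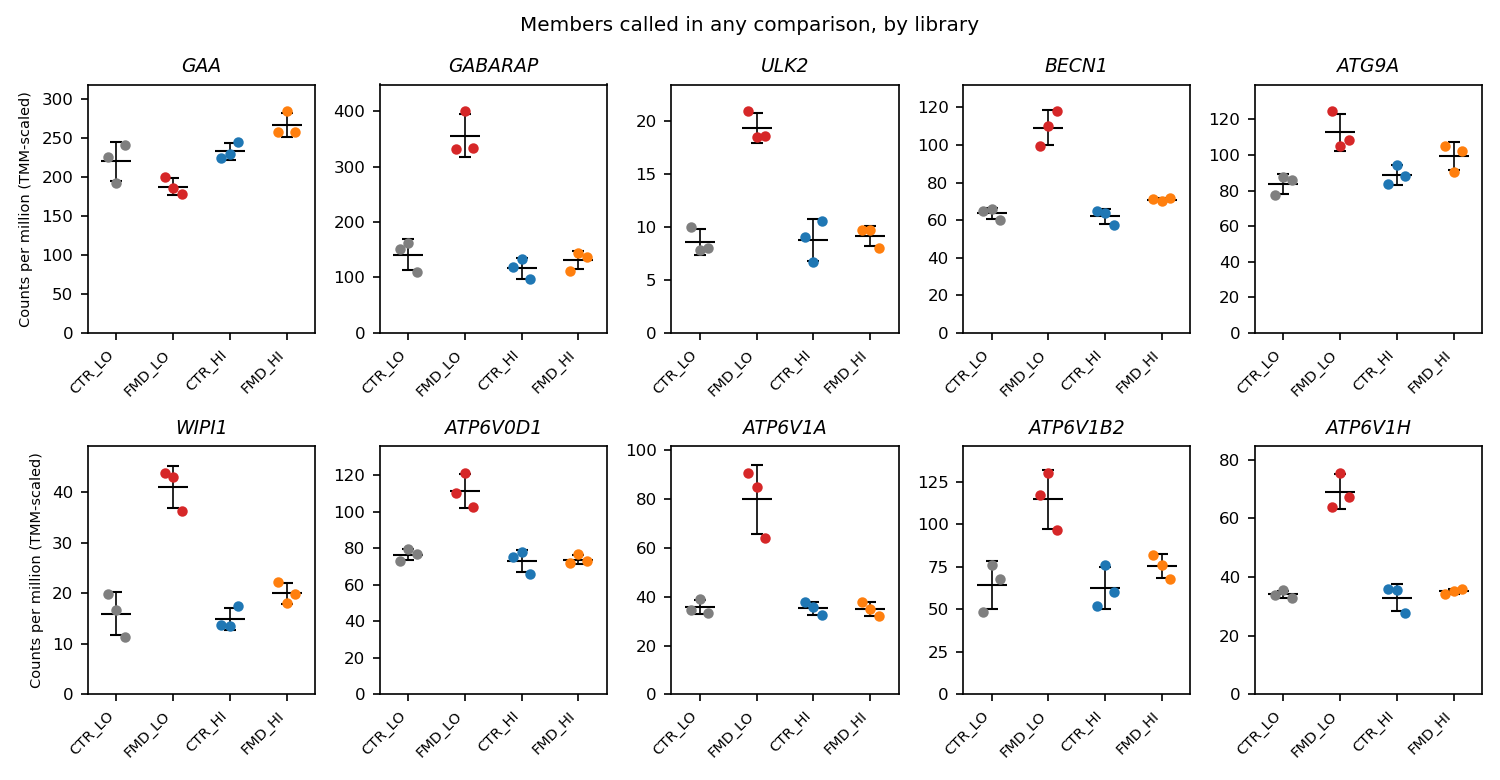
CPM by library for the 10 genes that passed in at least 1 comparison; points are libraries, black lines the mean and SD of 3. In 9 panels all 3 FMD_LO libraries lie above every CTR_LO library, and in the GAA panel FMD_LO lies below FMD_HI.

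Of 6 genes of the proton pump, 4 rose in FMD_LO. ATP6V1A, the catalytic subunit of the V1 sector (chromosome 3, 113747035 to 113812056), stood at 34.5, 38.9 and 33.5 CPM in CTR_LO and at 90.9, 84.8 and 63.9 in FMD_LO. The groups did not overlap, and the mean went from 35.6 ± 2.89 to 79.9 ± 14.1 CPM (SD, n = 3; log2 fold change 1.17 ± 0.14, adjusted p = 9.26e-05). ATP6V1H, a regulatory subunit of V1, stood at 33.9, 35.4 and 32.8 CPM in CTR_LO and at 64.04, 75.6 and 67.4 in FMD_LO. Each FMD_LO library was thus above each CTR_LO library (1.02 ± 0.12, adjusted p = 8.86e-05). ATP6V1B2, the other nucleotide-binding subunit, stood at 48.7, 76.4 and 68.1 CPM in CTR_LO and at 117, 130.5 and 96.4 in FMD_LO, again without overlap (0.83 ± 0.18, adjusted p = 0.00699). ATP6V0D1, a subunit of the membrane sector (chromosome 16, 67438019 to 67481157), stood at 73.3, 79.4 and 76.9 CPM in CTR_LO and at 110.4, 122 and 103 in FMD_LO (0.54 ± 0.11, adjusted p = 0.00319). ATP6V0D1 thus had the smallest difference of the 4, though its groups did not overlap either. The remaining pair did not pass: ATP6AP1, an accessory subunit (0.26 ± 0.11, adjusted p = 0.138), and ATP6V0E1, a small membrane subunit (-0.06 ± 0.14, adjusted p = 0.81).

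Of 5 genes of initiation and membrane supply, 3 rose. ULK2, a kinase that starts autophagy (chromosome 17, 19770830 to 19867936), stood at 10.01, 7.83 and 7.99 CPM in CTR_LO and at 20.95, 18.5 and 18.6 in FMD_LO (log2 fold change 1.17 ± 0.18, adjusted p = 5.67e-04). Its paralogue ULK1 had 65.8, 76.7 and 62.6 CPM in CTR_LO and 79.8, 81.4 and 64.8 in FMD_LO, groups that overlapped (0.14 ± 0.16, adjusted p = 0.591). BECN1, which encodes Beclin 1 of the lipid kinase complex (chromosome 17, 42810132 to 42824282), stood at 64.6, 66.01 and 59.97 CPM in CTR_LO and at 99.3, 110.3 and 118 in FMD_LO (0.78 ± 0.10, adjusted p = 2.02e-04). Every FMD_LO library exceeded every CTR_LO library for ULK2 and for BECN1. ATG9A, a lipid scramblase on the vesicles that seed autophagosomes (chromosome 2, 219219380 to 219229636), stood at 77.2, 87.4 and 85.9 CPM in CTR_LO and at 125, 105 and 108 in FMD_LO (0.43 ± 0.11, adjusted p = 0.0164). The ATG9A call was lost without CTR_LO replicate 1 (adjusted p = 0.085) and without FMD_LO replicate 1 (adjusted p = 0.091). UVRAG did not pass (0.25 ± 0.12, adjusted p = 0.166).

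WIPI1, a reader of the autophagosomal phosphoinositide (chromosome 17, 68421281 to 68457496), stood at 19.8, 16.8 and 11.3 CPM in CTR_LO and at 43.9, 43.04 and 36.2 in FMD_LO. It had the largest log2 fold change of the 34 genes (1.36 ± 0.19, adjusted p = 2.85e-04). WIPI2, which recruits the conjugation machinery, ranged from 69.5 to 71.2 CPM in CTR_LO and from 71.8 to 73.6 in FMD_LO (0.05 ± 0.09, adjusted p = 0.757). The WIPI2 libraries did not overlap, but the difference did not pass. Of the 4 conjugation genes ATG5, ATG7, ATG12 and ATG16L1, 0 passed, with log2 fold changes from -0.04 to 0.28 and adjusted p from 0.195 to 0.958.

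In the ATG8 family, whose members are coupled to membrane lipid and bind cargo receptors, GABARAP rose. GABARAP (chromosome 17, 7240008 to 7242449) stood at 151, 163 and 109.6 CPM in CTR_LO and at 333, 400.4 and 334 in FMD_LO, and its mean went from 141 ± 28.1 to 356 ± 38.7 CPM (SD, n = 3; log2 fold change 1.33 ± 0.17, adjusted p = 1.57e-04). MAP1LC3B, the source of the common autophagy marker LC3B, had 89.4, 132 and 87.5 CPM in CTR_LO and 115, 109 and 79.2 in FMD_LO. Its groups overlapped, with an approximate 95% interval of the log2 fold change from -0.47 to 0.42 (-0.02 ± 0.21, adjusted p = 0.955). GABARAPL2 stood at 55.1, 63.2 and 52.99 CPM in CTR_LO and at 69.1, 81.6 and 69.8 in FMD_LO. Its libraries did not overlap, but it did not pass (0.36 ± 0.14, adjusted p = 0.0858), whereas with DESeq2 it did (adjusted p = 0.0416). GABARAPL1 stood at 40.5, 42.3 and 30.2 CPM in CTR_LO and at 60.8, 81.2 and 38.7 in FMD_LO, and FMD_LO replicate 3 lay below 2 of the CTR_LO libraries (0.68 ± 0.32, adjusted p = 0.175). SQSTM1, whose p62 protein is itself consumed by autophagy, overlapped in the same way, with 521, 675 and 639 CPM in CTR_LO and 865, 929 and 635 in FMD_LO (0.40 ± 0.19, adjusted p = 0.174).

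**Figure D3:**
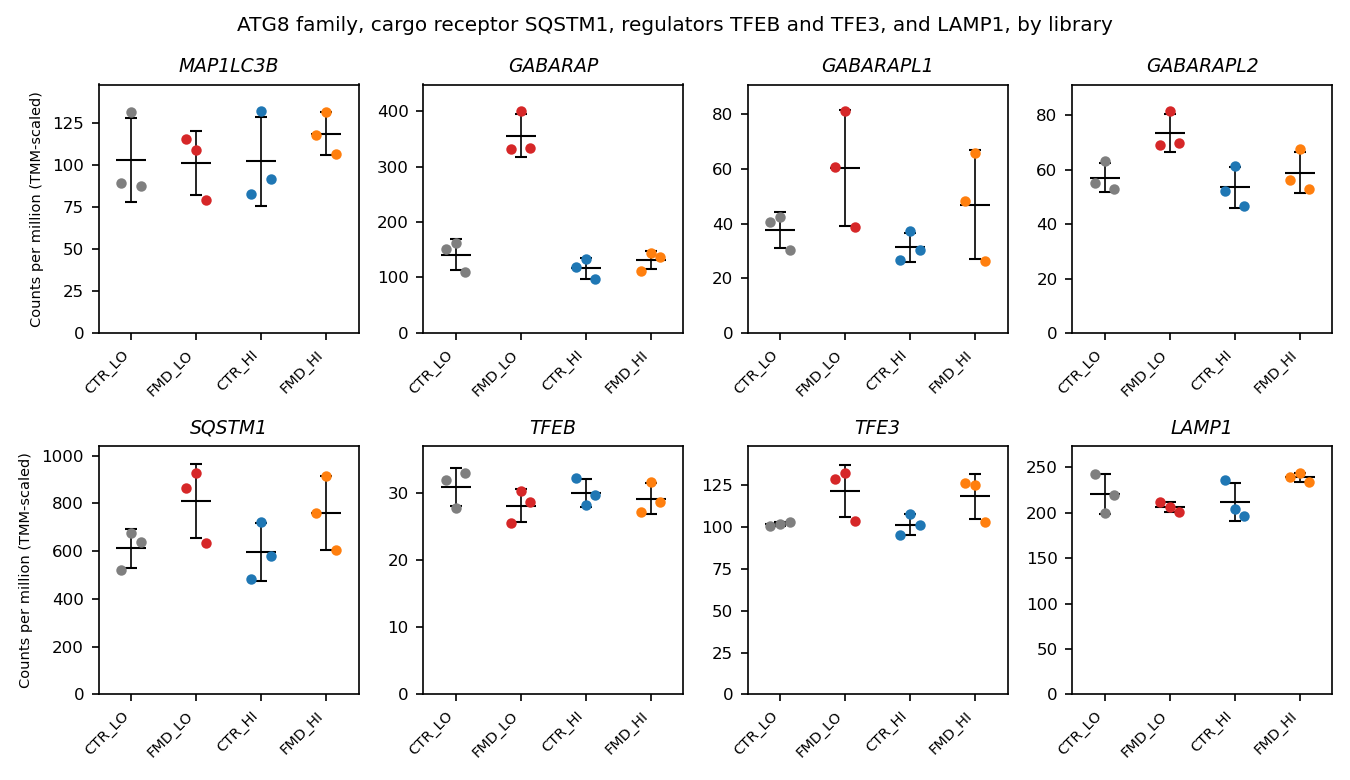
CPM by library for genes that include the ATG8 family, SQSTM1, TFEB and TFE3; points are libraries, black lines the mean and SD of 3. GABARAP in FMD_LO (333 to 400.4) lies above every other library, while MAP1LC3B and TFEB overlap between CTR_LO and FMD_LO.

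TFEB, a master regulator of lysosomal genes, stood at 32.04, 27.8 and 33.1 CPM in CTR_LO and at 25.5, 30.3 and 28.8 in FMD_LO. The groups overlapped (log2 fold change -0.14 ± 0.12, adjusted p = 0.465; approximate 95% interval -0.39 to 0.12). TFE3, its relative, stood at 101, 102 and 103 CPM in CTR_LO and at 129, 133 and 104 in FMD_LO, without overlap, and did not pass (0.26 ± 0.12, adjusted p = 0.166). Of 6 hydrolases and activators 0 passed: GLA, GAA, HEXA, NEU1 and GUSB, which cleave sugar residues from their substrates, and PSAP had log2 fold changes from -0.23 to 0.16. GUSB, with 64.8 to 67.99 CPM in CTR_LO and 55.1 to 64.3 in FMD_LO, was the single gene of the 34 whose FMD_LO libraries all lay below CTR_LO (2.94%, against 17.8% of all tested genes), and it did not pass (-0.13 ± 0.12, adjusted p = 0.512). Of 4 membrane genes 0 passed. LAMP2, a receptor of chaperone-mediated autophagy, had the smallest log2 fold change of the 34 (-0.24 ± 0.11, adjusted p = 0.172), with 251, 213 and 245 CPM in CTR_LO and 215, 191 and 195 in FMD_LO, groups that overlapped at 1 library. MCOLN1, a calcium channel of the lysosome, had the largest of the 4 (0.27 ± 0.13, adjusted p = 0.163). No hydrolase, activator or membrane gene reached an unadjusted p below 0.05.

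Many genes listed as markers of other cell types moved with these differences. The 4 leukocyte markers summed to 12.7 to 22.04 CPM in CTR_LO and 154 to 189 in FMD_LO, and 3 of the 4 rose, among them PTPRC, which encodes CD45. The 12 macrophage markers summed to 14.6 to 22.7 CPM in CTR_LO and 90.7 to 105 in FMD_LO, and 3 of the 6 tested rose: SPI1 (mean 1.38 ± 0.647 and 43.6 ± 3.87 CPM), CSF1R (1.495 ± 0.278 and 25.2 ± 5.04) and MRC1. FCGR1A and C1QA had 0 counts in all 12 libraries and TYROBP had 0 in FMD_LO. Macrophages are rich in lysosomes. Of 9 fibroblast markers 6 rose, with sums of 18426 to 32404 CPM in CTR_LO and 44755 to 66647 in FMD_LO. The collagen genes COL1A1, COL1A2 and COL3A1 made up nearly all of those sums. Already in CTR_LO the fibroblast sums exceeded those of the markers chosen for the line, given below. Which cells made the collagen messages, the line included, was not tested. Libraries overlapped for DCN (means of 58.8 and 65.8 CPM) and LUM (26.3 and 22.3). The 6 endothelial markers summed to 7.51 to 18.01 CPM in CTR_LO and 29.7 to 67.3 in FMD_LO, and 2 rose. Of the 4 red cell markers, with sums of 0.477 to 4.602 and 6.89 to 30.98 CPM, ALAS2 rose and HBA2 was at 0 counts in all 12 libraries. HBB made up most of those sums, at 0.414 to 4.13 CPM in CTR_LO and 6.59 to 28.3 in FMD_LO, without overlap. ALAS2 was low and its groups overlapped, at 0.0594 to 0.437 and 0.294 to 2.66 CPM. Neutrophil sums overlapped (1.49 to 57.5 and 27.8 to 48.4 CPM), with 2 of the 4 tested markers higher. The other 2, S100A8 and S100A9, averaged lower in FMD_LO (log2 fold changes -0.36 ± 1.31 and -1.04 ± 1.19). Their libraries overlapped and they did not pass. The 6 markers chosen for the line summed to 6231 to 7103 CPM in CTR_LO and 6579 to 7988 in FMD_LO. VIM made up most of that sum and was the only 1 with a log2 fold change above 0. The other 5 lay below 0, 3 of them at an unadjusted p below 0.05, and 1, KRT18, fell. KRT8 stood at 423 to 424 CPM in CTR_LO and 327 to 341 in FMD_LO, without overlap, and did not pass. Whether mouse reads were removed is not given in the sources used here, and the part of other cells in the differences of the 34 genes was not tested. In these bulk samples, fewer cells of a type and less RNA per cell cannot be told apart.

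**Figure D4:**
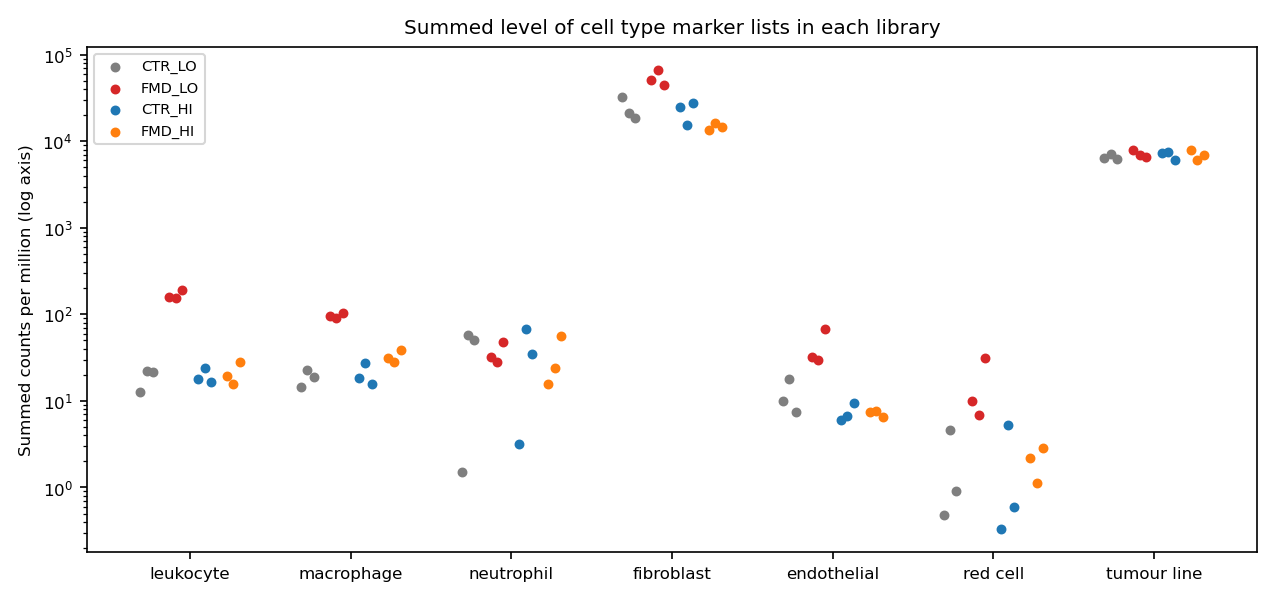
Summed CPM of each marker list in each library (log axis); each point is 1 library, coloured by group. Leukocyte sums in FMD_LO (154 to 189) lie above all other libraries. The sums for the tumour line, of which VIM is the most part, overlap between groups.

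Between diets in CD24-high cells, the fraction meant to be more differentiated, the 34 genes leaned upward by small amounts and 0 passed in either direction with edgeR, where 0% of all tested genes passed. At an unadjusted p below 0.05 there were 2 of the 34, WIPI1 and WIPI2, and with DESeq2 again 0 passed. The log2 fold change was above 0 for 29 of the 34 (85.3%), against 48.99% of all tested genes, and the median was 0.16. WIPI1 stood at 13.8, 13.6 and 17.5 CPM in CTR_HI and at 22.2, 18.1 and 19.8 in FMD_HI, without overlap (0.42 ± 0.18, adjusted p = 0.708). GABARAPL1 had the largest log2 fold change, with 26.6, 37.2 and 30.4 CPM in CTR_HI and 48.4, 66.01 and 26.3 in FMD_HI (0.58 ± 0.32, adjusted p = 0.829). FMD_HI replicate 3 was the lowest of those 6 libraries. GLA had the smallest, with 39.3, 46.8 and 31.3 CPM in CTR_HI and 32.2, 35.3 and 32.8 in FMD_HI (-0.23 ± 0.16, adjusted p = 0.893). GABARAP stood at 118, 134 and 96.9 CPM in CTR_HI and at 112, 144 and 137 in FMD_HI, groups that overlapped (0.17 ± 0.17, adjusted p = 0.956). Libraries did not overlap for 5 genes, BECN1, GAA, PSAP, WIPI1 and WIPI2, all higher in FMD_HI (14.7%, against 4.48% of all tested genes), and for 0 in the other direction (against 4.72%). Macrophage marker sums were 15.6 to 27.2 CPM in CTR_HI and 28.4 to 38.7 in FMD_HI, and leukocyte sums overlapped (16.6 to 23.8 and 15.8 to 28.3). Fibroblast and endothelial markers leaned downward, with log2 fold changes below 0 for 8 of 9 and 4 of 6. At an unadjusted p below 0.05, 5 fibroblast markers and 1 endothelial marker were lower, and none passed. The part of those cells in these values was not tested.

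**Figure D5:**
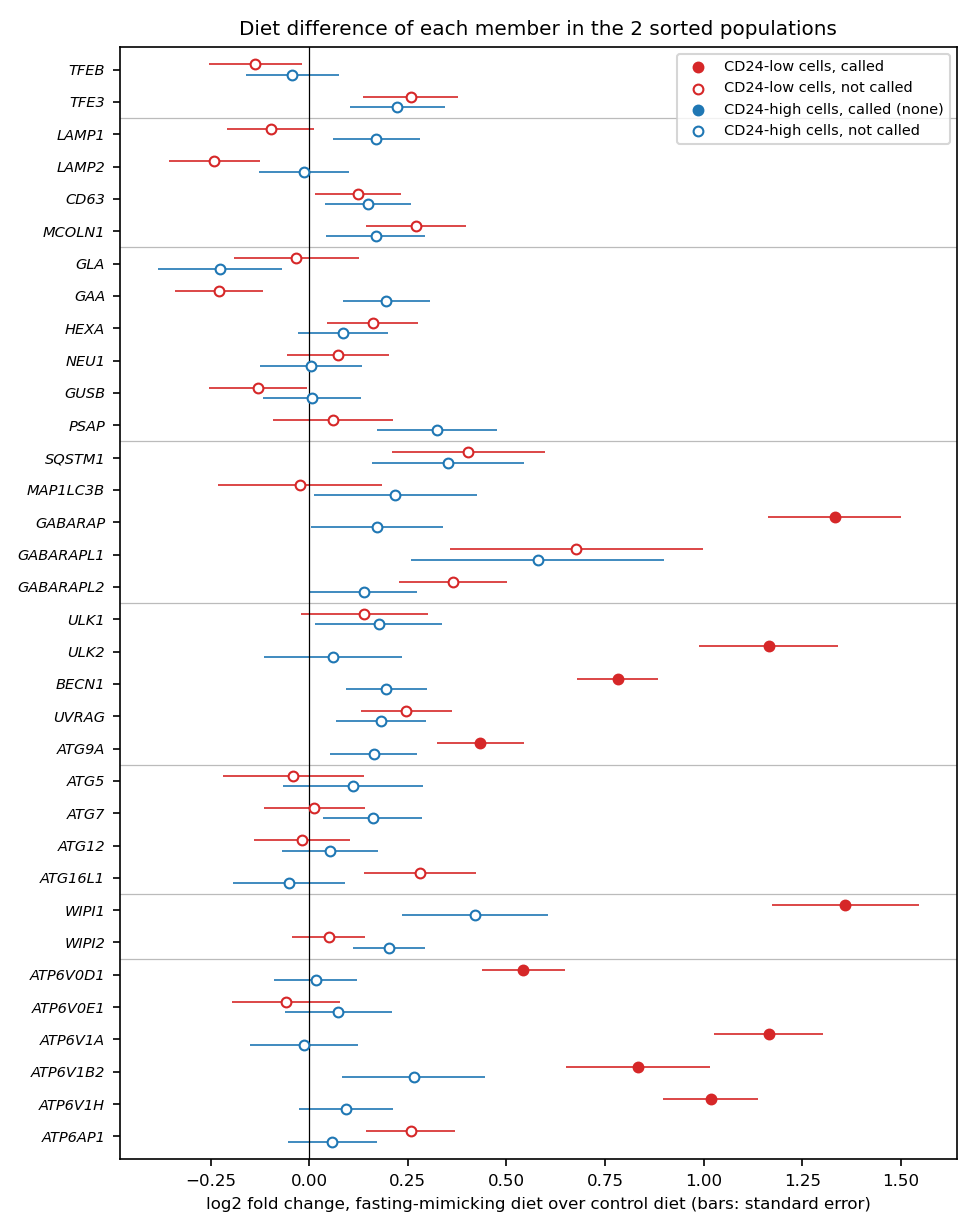
Log2 fold change of the fasting-mimicking over the control diet for the 34 genes in CD24-low and CD24-high cells, grouped by role; bars are standard errors and filled points passed at an adjusted p below 0.05. The 9 filled points are all in CD24-low cells, from 0.43 for ATG9A to 1.36 for WIPI1.

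An interaction term tested whether the diet difference itself differed between populations. Of the 34 genes, 5 had a larger diet difference in CD24-low than in CD24-high cells, where 4.07% of all tested genes did (4.13% passed in either direction). A smaller one was seen for 0 of the 34, where 0.0517% of all tested genes had one; DESeq2 also gave 0, and at an unadjusted p below 0.05 there was 1, GAA. ATP6V1A had the largest value, a log2 difference of 1.18 ± 0.19 (adjusted p = 0.00422). The interaction was 1.16 ± 0.24, adjusted p = 0.0144 for GABARAP and 1.10 ± 0.25, adjusted p = 0.0228 for ULK2. For ATP6V1H it was 0.92 ± 0.17, adjusted p = 0.00739, and for BECN1 0.59 ± 0.14, adjusted p = 0.0382. In CD24-high cells ATP6V1A stood at 37.7, 35.6 and 32.5 CPM in CTR_HI and 37.7, 35.1 and 32.03 in FMD_HI, and ATP6V1H at 35.8, 35.4 and 27.6 and 34.2, 35.2 and 36.002. Neither showed the separation seen in CD24-low cells. ULK2 kept its call in 8 of 12 fits that left out 1 library and BECN1 in 2 of 12. Without CTR_LO replicate 3, CTR_HI replicate 1 or FMD_HI replicate 3 the number of genes was 3. WIPI1 (0.94 ± 0.26, adjusted p = 0.064) and ATP6V0D1 (0.53 ± 0.15, adjusted p = 0.0692) did not pass here. Both passed with DESeq2 (adjusted p = 0.0111 and 0.00927), and WIPI1 also with RLE scaling (adjusted p = 0.0482), so whether their diet differences differ between populations depended on the method. WIPI1 passed without CTR_LO replicate 1 (adjusted p = 0.0252) and ATP6V0D1 without CTR_HI replicate 3 (adjusted p = 0.0489). GAA had the smallest value (-0.42 ± 0.16, adjusted p = 0.188). The marker sums given above moved in FMD_LO in this contrast too, and their part was not tested.

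CD24-high cells were then compared with CD24-low cells under each diet. Under the control diet 0 of the 34 genes passed with edgeR or with DESeq2, and 0 reached an unadjusted p below 0.05, where 0% of all tested genes passed. ULK1 had the largest log2 fold change (0.12 ± 0.16), with 62.05, 90.6 and 70.2 CPM in CTR_HI, and GABARAP the smallest (-0.28 ± 0.17). Groups without overlap were seen for 0 of the 34 (against 1.47% of all tested genes higher and 1.96% lower).

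Under the fasting-mimicking diet, which uses the FMD_LO libraries described above, 8 of the 34 genes were lower in CD24-high cells, where 12.2% of all tested genes were, and 1 was higher, where 1.84% were (14% passed in either direction). Libraries did not overlap for 10 genes in the lower direction (against 18.3% of all tested genes) and 4 in the higher (against 13.1%). GABARAP had the smallest log2 fold change (-1.44 ± 0.17, adjusted p = 8.15e-05). ATP6V1A (-1.19 ± 0.14, adjusted p = 7.72e-05), ATP6V1H (-0.97 ± 0.12, adjusted p = 1.11e-04), ATP6V0D1 (-0.59 ± 0.11, adjusted p = 0.00156) and ATP6V1B2 (-0.60 ± 0.18, adjusted p = 0.0408) were the pump genes that were lower. ULK2 (-1.08 ± 0.18, adjusted p = 9.15e-04), BECN1 (-0.62 ± 0.10, adjusted p = 9.75e-04) and WIPI1 (-1.03 ± 0.19, adjusted p = 0.00164) were lower as well. ULK2 stood at 9.73, 9.72 and 8.06 CPM in FMD_HI and at 9.07, 6.65 and 10.6 in CTR_HI. BECN1 stood at 64.8, 63.8 and 57.2 CPM in CTR_HI and 71.1, 70.2 and 71.5 in FMD_HI. ATP6V0D1 stood at 75.1, 77.9 and 66.1 CPM and 71.8, 76.8 and 73.04, so that all its libraries outside FMD_LO lay below those of FMD_LO. ATP6V1B2, at 51.8, 76.3 and 60.2 CPM in CTR_HI and 82.2, 76.2 and 67.9 in FMD_HI, lost its call without CTR_LO replicate 3, FMD_LO replicate 1 or 2, or any single FMD_HI library, with adjusted p up to 0.177. The gene that was higher in CD24-high cells was GAA, the lysosomal enzyme that degrades glycogen (chromosome 17, 80101581 to 80119881). GAA stood at 199, 186 and 177 CPM in FMD_LO and at 257, 284 and 258 in FMD_HI, without overlap (0.51 ± 0.11, adjusted p = 0.00678). In the control libraries GAA stood at 226, 192 and 241 CPM in CTR_LO and 224, 229 and 244 in CTR_HI, between the FMD groups on average. Many markers of other cell types moved in this contrast as well. Lower in FMD_HI than in FMD_LO were 3 of 4 leukocyte, 2 of 6 macrophage and 2 of 4 neutrophil markers tested. So were 6 of 9 fibroblast, 4 of 6 endothelial and 1 of 2 red cell markers, against 12.2% of all tested genes. The macrophage markers CD68 (means of 17.7 CPM in FMD_LO and 19.0 in FMD_HI) and ADGRE1 (5.57 and 5.97) went the other way. The neutrophil markers S100A8 (7.27 and 9.71 CPM) and S100A9 (13.0 and 21.9) did too, and none of these passed. Leukocyte sums were 154 to 189 CPM in FMD_LO and 15.8 to 28.3 in FMD_HI, macrophage sums 90.7 to 105 and 28.4 to 38.7, and fibroblast sums 44755 to 66647 and 13321 to 16451. Their part in these differences, with or without the block described next, was not tested.

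Same-numbered FMD_LO and FMD_HI libraries deviated together. With a block for that number, fitted to those 2 groups alone, 13 of the 34 genes were lower and 4 higher in CD24-high cells, where 21.3% of all genes tested were lower and 18.8% higher (40.2% in either direction). The genes added as lower were GABARAPL1 (-0.39 ± 0.08, adjusted p = 4.95e-04), GABARAPL2, GLA, ATG9A and ATG16L1. Those added as higher were LAMP2 (0.27 ± 0.07, adjusted p = 0.00305), LAMP1 and MAP1LC3B. LAMP2 stood at 215, 191 and 195 CPM in FMD_LO and at 250.1, 236 and 237 in FMD_HI. That fit left 2 residual degrees of freedom.

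In the FMD groups, replicate 3 was the lowest library in both FMD_LO and FMD_HI for 13 of the 34 genes (38.2%), against 26% of all tested genes. Those 13 were TFE3, LAMP1, CD63, MCOLN1, PSAP, SQSTM1, MAP1LC3B, GABARAPL1, ULK1, UVRAG, ATP6V1A, ATP6V1B2 and ATP6AP1. SQSTM1 stood at 759, 916 and 606 CPM and PSAP at 2942, 3486 and 2605 in FMD_HI. MAP1LC3B stood at 118, 132 and 106 CPM in FMD_HI and 82.5, 132 and 91.6 in CTR_HI. The summed level of the 34 genes was 7241, 7545 and 6023 CPM in FMD_LO and 6798, 7608 and 6228 in FMD_HI, against 5721 to 6425 in the 6 control libraries. PSAP, with 2893, 3015 and 2179 CPM in FMD_LO, was the largest single part of that sum, so the sum weighs the few abundant genes most.

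Another 101 lysosome and autophagy genes in the files, of which 100 were tested, were read beside the 34. In FMD_LO against CTR_LO, 23 of the 100 rose and 0 fell with edgeR (4 were lower at an unadjusted p below 0.05), with a median log2 fold change of 0.15. Over all tested genes 12% rose and 4.33% fell. By role, 6 of 11 other pump genes rose, 5 of 12 regulators, 9 of 37 autophagy genes, 2 of 26 hydrolases and 1 of 14 membrane and sorting genes. FNIP1, a partner of folliculin in the control of TFE3 and mTORC1, stood at 17.7 ± 2.24 CPM in CTR_LO and 55.7 ± 11.96 in FMD_LO (1.66 ± 0.18, adjusted p = 3.69e-05). RAB7A, the small GTPase of late endosomes and lysosomes, stood at 258 ± 41.3 and 774 ± 179 CPM (1.58 ± 0.19, adjusted p = 1.21e-04). MAP1LC3A, another ATG8 gene, stood at 12.5 ± 3.36 and 38.3 ± 6.297 CPM (1.61 ± 0.20, adjusted p = 1.37e-04). FUCA1, a lysosomal fucosidase, stood at 11.6 ± 0.664 and 22.6 ± 1.66 CPM (0.95 ± 0.14, adjusted p = 3.69e-04). Among CD24-high cells 0 of the 100 passed between diets, with 5 at an unadjusted p below 0.05. In the interaction 8 of the 100 had a larger diet difference in CD24-low cells and 0 a smaller one (1 at an unadjusted p below 0.05), where 4.07% and 0.0517% of all tested genes did. Among the 8 were FNIP1 (1.41 ± 0.24, adjusted p = 0.00543), MITF, a relative of TFEB (2.07 ± 0.39, adjusted p = 0.00917), RAB7A (1.39 ± 0.27, adjusted p = 0.0105) and the pump gene ATP6V1C1 (0.98 ± 0.20, adjusted p = 0.0144). Between populations 0 passed under the control diet, with 0 at an unadjusted p below 0.05. Under the fasting-mimicking diet 19 of the 100 were lower in CD24-high cells and 0 higher, where 12.2% and 1.84% of all tested genes were, in a contrast in which 18 of the 37 cell type markers tested were lower and 1, KRT18, was higher. The part of other cells was not tested. Those with the smallest p were FNIP1 (-1.41 ± 0.17, adjusted p = 1.14e-04), MAP1LC3A (-1.44 ± 0.20, adjusted p = 2.78e-04), RAB7A (-1.38 ± 0.19, adjusted p = 2.97e-04) and MITF (-1.97 ± 0.28, adjusted p = 3.29e-04).

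Set beside the promoter windows, 1 of 6 genes that rose in FMD_LO and had a window (ATP6V0D1) and 3 of 20 other genes with one held TCACGTGA. The pump genes ATP6V1A, ATP6V1B2 and ATP6V1H also rose but had no window, so their promoters were not searched. GABARAP, ULK2, BECN1, ATG9A and WIPI1 had windows without CACGTG. MCOLN1, LAMP1 and GAA had log2 fold changes of 0.27, -0.10 and -0.23 between diets in CD24-low cells and 0.17, 0.17 and 0.20 in CD24-high cells, and none of these passed.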

How the data were processed

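RNA of 12 sorted samples was sequenced with a stranded messenger RNA kit, per the labels' protocols. Reads were aligned with STAR to hg38, per the submitters' processing notes; its version and the annotation are not given in the sources used here. Each deposited file holds raw whole-number counts per gene symbol as the authors made them, with columns for either, forward and reverse strand, and the reverse-strand counts were used. One edgeR fit held all 4 groups (edgeR 4.0.16 in R 4.3.3, quasi-likelihood, robust, TMM, default count filter, 8 residual degrees of freedom). It kept 15461 genes, left out 11014 and gave a biological coefficient of variation of 0.19. A call needed an adjusted p below 0.05, by the Benjamini-Hochberg method across the tested genes of each of 5 contrasts. The printed p-values are computed here. Standard errors are the log2 fold change over the root of the F statistic. The genes and lists were chosen with earlier results of these data known. Libraries are printed for genes called in any contrast, TFEB, TFE3, the ATG8 family and the extremes of a contrast, and for the longer list up to 4 genes with the smallest p; other genes named, such as SQSTM1, WIPI2, GUSB and PSAP, were chosen after their values were seen. The same-numbered FMD_LO and FMD_HI libraries were treated as pairs because deviations from group means correlated in each of 3 pairs (r = 0.285 to 0.485). Gene positions and promoter windows were those of RefSeq (GRCh38.p14, of the same primary assembly as hg38). Alternatives were DESeq2 1.42.0, RLE scaling, a fit without the count filter, a fit of the compared groups alone, a block by number, reads of either strand, thinning to equal depth, and each library left out; the block within a diet was chosen after seeing the data. The fit was tested on simulated data.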

Additional observations from a re-analysis of the deposited data

Results flagged for a closer look

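The diet difference differed between the sorted populations, by a test of the difference itself, for 5 genes: ATP6V1A (log2 difference 1.18), GABARAP (1.16), ULK2 (1.10), ATP6V1H (0.92) and BECN1 (0.59), each larger in CD24-low cells. The BECN1 call was the least stable of the 5, kept in 7 of 18 alternatives, and ULK2 kept its call in 14 of 18. The other 3 kept theirs in all 18.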

How the results depend on the processing

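Of 23 calls of single genes, 19 were kept under every alternative run and none changed sign; the others were ATG9A between diets, ATP6V1B2 between populations, and ULK2 and BECN1 in the interaction. Among 147 pairs of gene and contrast that were not called, 12 were called under at least 1 alternative and 62 changed sign under at least 1. Leaving out 1 library gave 8 to 9 genes higher in FMD_LO than in CTR_LO, 7 to 8 lower in FMD_HI than in FMD_LO and 3 to 6 in the interaction. Counts over all genes ranged from 1562 to 2795 between diets in CD24-low cells (1577 if CTR_LO replicate 3 was left out, and 1662 or 1562 if it was FMD_LO replicate 1 or 2), 0 to 1 in CD24-high cells, 1504 to 2318 between populations under the fasting-mimicking diet, and 380 to 767 in the interaction (main count 638; 409 without CTR_LO replicate 3, 403 without FMD_HI replicate 2, 412 and 380 without FMD_LO replicates 1 and 2). With DESeq2 all genes called were 75 between diets in CD24-high cells and 1156 in the interaction, and without the count filter 1 in CD24-high cells; the cause was not tested. A block by replicate number over all 4 groups gave 1 gene between diets in CD24-high cells. With that block GABARAPL1 and GABARAPL2 passed between diets in CD24-low cells (adjusted p = 0.0463 and 0.0159) and ATP6V0D1 in the interaction (adjusted p = 0.0484). Same-numbered CTR_LO and FMD_LO libraries did not deviate together (r = -0.117 to 0.0824). The block by number within the fasting-mimicking diet gave 5870 genes in place of 2163, with 13 of the 34 genes lower and 4 higher in place of 8 and 1. Under the control diet same-numbered libraries of the populations had correlations of 0.445 and 0.522 for numbers 1 and 2, but 0.0373 for number 3. CTR_HI replicate 3 correlated better with CTR_LO replicate 1 (0.171) than with its own number. Because of number 3, the control numbers were not taken to pair the samples. The block within that diet called 0 genes. Depth was lowest in FMD_LO, and thinning every library to its smallest total kept each of these counts within 1.5 times.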
